A study of Mus musculus with 40 samples.

Results

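Cells recovered from 3 tumours passaged in CBA mice were compared with cells from 3 tumours of the passage labelled Balb/c-2, the last change of host strain in a serial passage of YUMM1.7 melanoma cells through mice. The 6 libraries were taken by the names of their samples and columns out of 40 in all. The 3 CBA libraries (tumours A, B and C) form one group, and the repeat libraries of the Balb/c-2 tumours (A, B and C, labelled rep2) form the other. YUMM1.7 is a mouse melanoma line of C57BL/6 origin, and CBA and Balb/c are inbred mouse strains. The labels name no allele, transgene or drug for either group and no age or sex of the mice. In both groups the tumours were dissociated and the cells grown in culture for 1 to 3 passages before polyadenylated RNA was extracted, so that the measurement is of cultured tumour cells and of any host cells that remained with them. Letters mark different tumours, and the labels do not tie tumour A of one host to tumour A of the other. The same 3 Balb/c-2 tumours also have an earlier set of libraries, called the first Balb/c-2 libraries below.

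The measurement is the signal of single annotated copies of repetitive elements, which is the number of reads on a copy divided by 1 factor per library. Repeats fill a large part of mouse introns and untranslated regions, so most of their RNA is made as part of host genes, and a smaller part comes from promoters of the elements themselves, such as the long terminal repeats (LTRs) of endogenous retroviruses. The copies in the exons of a gene can therefore be summed to a partial readout of that gene. Type I and type II interferons act through receptors and transcription factors such as Irf9 to switch on antiviral genes and the genes of MHC class I, which presents peptides to CD8+ T cells. In tumours passaged through hosts of other strains, these surface molecules are among those that a host immune system can recognise.

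The 3 CBA libraries held 1766027, 1771697 and 1682589 reads on repeats and the 3 Balb/c-2 rep2 libraries 1442391, 1761884 and 1280522. Of the 6 libraries, 5 carry lane 3 of the same flow cell in their names, and Balb/c-2 rep2 B carries lane 1 of another flow cell, so values without that library are values within 1 lane. Replicates of a group differed by more than counting error. Endothelial markers summed to between 0 and 3.26 in CBA libraries and to 0 in Balb/c-2 rep2 libraries, the measured keratinocyte, muscle and fat markers were at 0, and immune markers summed to between 15.2 and 47.1 in CBA and between 12.1 and 78.5 in Balb/c-2 rep2, with the T cell genes Cd3e and Cd3g at 0. Of the melanocyte lineage, Mlana, Oca2, Slc24a5 and Tyr were at 0 in all 6 libraries, and the 10 listed genes with a copy in the table summed to between 61.0 and 86.9 in CBA and between 82.9 and 149.8 in Balb/c-2 rep2. The labelled cell type thus rests on few lineage genes in this readout. Fibroblast markers summed to between 1154 and 1815 in CBA and between 2234 and 3263 in Balb/c-2 rep2, with Fap and Thy1 at 0 in all 6. The collagen gene Col1a1 had at most 4.35 in CBA libraries and at most 2.66 in Balb/c-2 rep2 libraries.

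Differences were tested with limma on log2(signal + 1), with 1 mean per group over all 11 groups of the series and features with an adjusted p below 0.05 (Benjamini-Hochberg over all features of a kind) were called. Fold changes are CBA over Balb/c-2 rep2 on that scale, which understates the change of low features. Summed over exons, 913 of 7254 host genes were called, 12.6% of those tested, of which 443 (6.11%) rose and 470 (6.48%) fell in CBA. The groups did not overlap for 2489 genes, and the median log2 fold change of all genes tested was 0.06. Leaving out Balb/c-2 rep2 C left 337 calls, leaving out CBA A 470, CBA C 489 and Balb/c-2 rep2 A 579. How reads that fit several copies were assigned is unknown here, so values of gene families with near-identical members are uncertain in how they split, and without known strand reads from a gene and from an overlapping antisense gene cannot be told apart.

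Interferon-stimulated genes were lower in CBA. Of 76 listed genes of the interferon response and of nucleic acid sensing, 51 were tested, 27 fell and 0 rose, against 6.48% and 6.11% of all genes tested. This list and the gene lists below were chosen with earlier results of these data known. Their counts beside the share of all genes are a description and no independent support. The list's median log2 fold change was -2.06, against 0.06 over all genes tested. Among the genes that fell were sensors of foreign nucleic acid, transcription factors that carry the signal, and effectors they switch on. In all 27 the highest CBA value was that of tumour B, and it was under every Balb/c-2 rep2 tumour. In bulk RNA, fewer cells of a type and less RNA per cell cannot be told apart.

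The member with the lowest fold change was Zbp1, a cytosolic sensor of Z-form nucleic acids (chr2:173206612-173218923, minus strand), read through 3 exon copies. Its signal was 8.37, 86.9 and 15.2 in CBA tumours A, B and C, against 1627, 976 and 536 in Balb/c-2 rep2 tumours A, B and C. All 3 CBA tumours lay under the lowest Balb/c-2 rep2 tumour, and Zbp1 was 39.96-fold lower in CBA (log2 fold change -5.32, SE 1.28, limma adjusted p = 0.00588). Isg15, a ubiquitin-like protein that is attached to other proteins during the interferon response (chr4:156199424-156200818), had 2.09, 10.9 and 0 in CBA, against 78.5, 40.9 and 52.9 in Balb/c-2 rep2. The groups did not overlap, and Isg15 fell (log2 fold change -4.09, SE 0.92, limma adjusted p = 0.00368). Rsad2, the antiviral enzyme viperin (chr12:26442746-26456452), had 1.05, 21.7 and 18.8 in CBA, against 688, 221 and 268 in Balb/c-2 rep2, and fell (log2 fold change -5.15, SE 1.301, limma adjusted p = 0.00818). Ifit1, which binds viral RNA (chr19:34640871-34650009), had 65.9, 378 and 73.9 in CBA, against 2520.3, 1414 and 1026 in Balb/c-2 rep2, a fall in which CBA B was the only CBA library above 100 (log2 fold change -3.64, SE 0.98, limma adjusted p = 0.013). The genes for the oligoadenylate synthetases, which activate RNase L, fell too: Oas2 by 4.98 and Oas3 by 4.18 on the log2 scale (limma adjusted p = 0.0267 and 0.0348). Oas3 was 22, 259 and 15.2 in CBA, against 1207, 636 and 750.4 in Balb/c-2 rep2, so that CBA B stood well above the other CBA tumours and below every Balb/c-2 rep2 tumour.

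Genes that sense foreign RNA or carry the signal fell as well. Stat2 and Irf9, transcription factors activated by type I interferon, fell by 2.06 and 2.35 on the log2 scale (limma adjusted p = 0.0281 and 0.0223). Among the sensors of double-stranded RNA, Ifih1 (the sensor MDA5) had 28.2, 204 and 79.7 in CBA, against 868, 604 and 559.8 in Balb/c-2 rep2, and fell (log2 fold change -3.08, SE 0.72, limma adjusted p = 0.00478), and Tlr3, the endosomal sensor, fell by 1.84 (limma adjusted p = 0.0115). Eif2ak2, the kinase PKR that stops translation on binding double-stranded RNA, had 1059, 2585 and 1136 in CBA, against 4712, 3481 and 3348 in Balb/c-2 rep2, with no overlap of the groups (log2 fold change -1.38, SE 0.41, limma adjusted p = 0.0233). Trim25, a ubiquitin ligase that acts on the sensor RIG-I, fell by 1.34, and Ifi44, with 86.8, 604 and 86.8 in CBA, against 3256, 2490.4 and 2949 in Balb/c-2 rep2, fell by 4.11 (limma adjusted p = 0.0459 and 0.0397). Usp18, the protease that removes Isg15 and dampens the receptor, had 43.9, 392.3 and 59.8 in CBA, against 2455, 1161 and 2244 in Balb/c-2 rep2, and fell (log2 fold change -4.18, SE 1.27, limma adjusted p = 0.0271).

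Several receptors, adaptors and sensors of the list were not called. Cgas, the DNA sensor, had 344, 397 and 328 in CBA, against 254, 329 and 331 in Balb/c-2 rep2 (log2 fold change 0.23), and the groups overlapped. Irf3, Tyk2, Mavs and the receptor gene Ifngr1 had log2 fold changes of 0.07, -0.03, -0.25 and 0.06. The receptor gene Ifnar1 had 277, 337 and 343 in CBA, against 519, 438 and 377 in Balb/c-2 rep2, with all 3 CBA values under the Balb/c-2 rep2 values and a limma adjusted p of 0.0743. Mx1, a dynamin-like antiviral protein, had 11.5, 71.7 and 42.2 in CBA, against 509.6, 231 and 49.9 in Balb/c-2 rep2, and Ddx58, the sensor RIG-I, had 163, 607 and 265 in CBA, against 1268, 932 and 844 in Balb/c-2 rep2 (limma adjusted p = 0.194 and 0.0832). Members named in this paragraph were chosen after their values were seen, as were Stat2, Irf9, Ifih1, Tlr3, Usp18 and Isg15 above.

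Zbp1, Isg15 and Cd274 kept their calls whichever of the 6 libraries was left out, while the call of Rsad2 was lost without CBA A and those of Oas2, Oas3, Ifi44, Ifit1, Eif2ak2 and Trim25 were lost in 3 to 5 of the 6 fits. The count of 27 was 3 without CBA A, 7 without Balb/c-2 rep2 A, 9 without CBA C and 14 without Balb/c-2 rep2 C.

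The promoters of the genes that fell were read for the interferon-stimulated response element, the site that the complex holding Stat2 and Irf9 binds. Its core was searched on both strands, in windows of 250 bases before to 50 bases after the RefSeq start of a gene (GRCm38.p6). Of all 32851 windows 3.44% hold it. A window was found for 39 of the 51 tested members, and 14 of these (35.9%) hold the core. Of the 27 genes that fell, 22 have a window and 11 of these hold it. For the tested genes of replication and mitosis the count was 7 of 65 windows (10.8%). The 150 bases before the start are shown for 4 genes that fell and hold the core there, chr12:26456453-26456602 (minus strand) for Rsad2, chr4:156200819-156200968 (minus) for Isg15, chr19:34640739-34640888 (plus) for Ifit1 and chr5:120777660-120777809 (minus) for Oas3, each 5′ to 3′ on the strand of the gene with every match in capitals.
Rsad2: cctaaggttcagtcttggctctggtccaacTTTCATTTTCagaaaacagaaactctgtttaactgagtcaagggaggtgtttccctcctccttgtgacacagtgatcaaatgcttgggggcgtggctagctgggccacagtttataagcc
Isg15: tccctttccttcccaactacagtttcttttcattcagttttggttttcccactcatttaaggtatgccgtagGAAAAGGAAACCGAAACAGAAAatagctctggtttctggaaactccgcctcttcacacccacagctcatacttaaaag
Ifit1: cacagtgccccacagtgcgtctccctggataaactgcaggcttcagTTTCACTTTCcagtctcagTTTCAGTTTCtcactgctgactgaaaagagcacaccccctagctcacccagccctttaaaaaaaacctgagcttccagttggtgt
Oas3: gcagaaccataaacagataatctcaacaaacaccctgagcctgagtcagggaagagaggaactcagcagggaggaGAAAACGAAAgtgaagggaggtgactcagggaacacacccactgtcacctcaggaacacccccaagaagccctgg
Isg15 holds 3 matches that overlap one another, 78 to 57 bases before its start, and Ifit1 holds 2 that do not overlap. A match describes the letters of the window and is not a measured binding site.

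**Figure D1:**
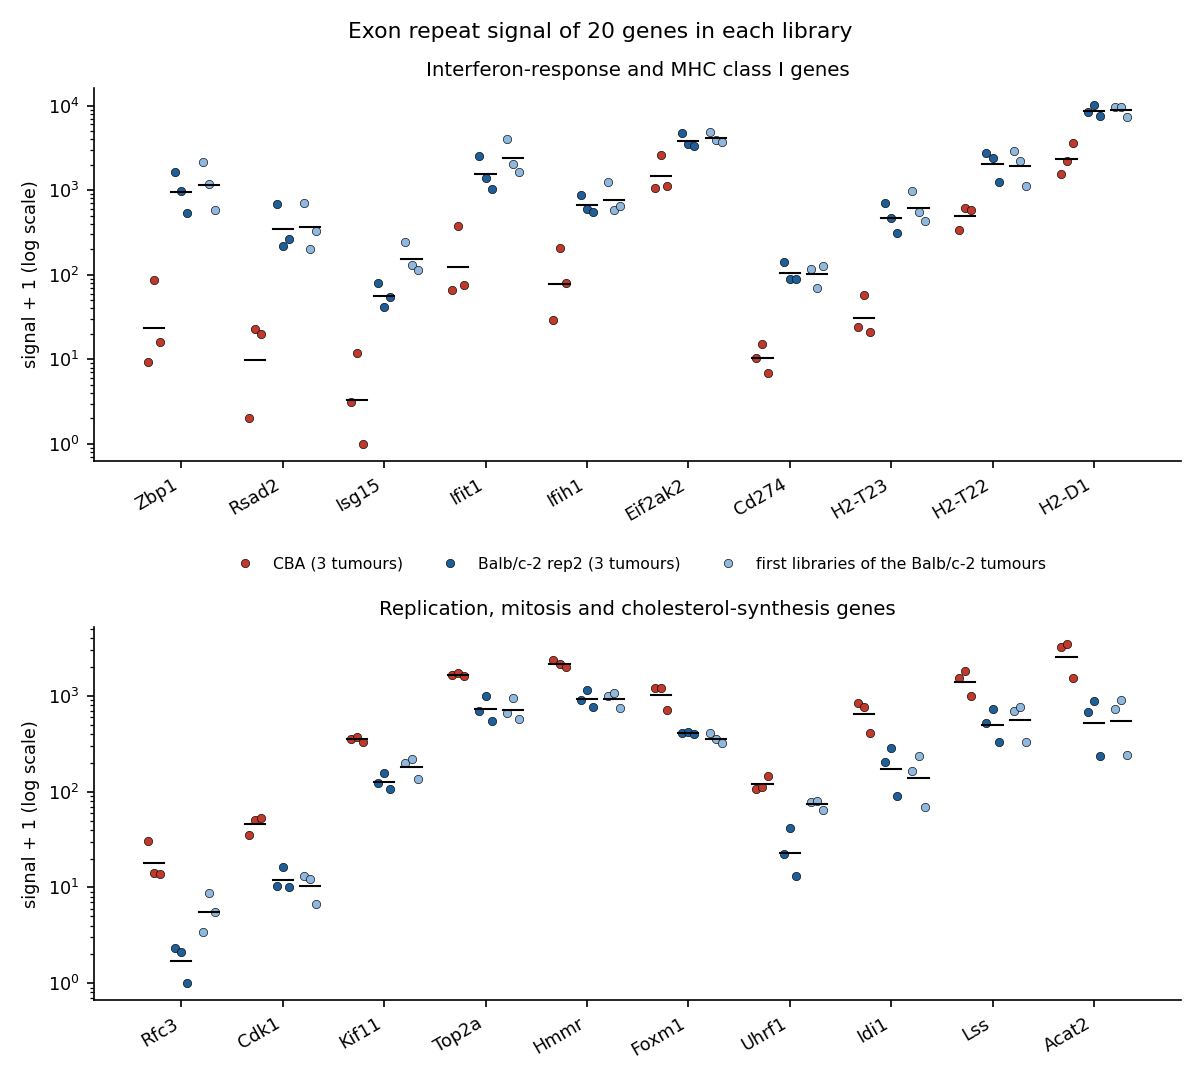
Signal + 1 (log scale) of the exon repeat copies of 10 interferon and MHC class I genes (top) and 10 replication, mitosis and cholesterol synthesis genes (bottom) in CBA, Balb/c-2 rep2 and first Balb/c-2 libraries; each point is 1 tumour and each bar the mean of its group on the log2 scale. For Zbp1 the signal of the CBA tumours lies between 8.37 and 86.9 and that of the Balb/c-2 rep2 tumours between 536 and 1627, and for Acat2 the CBA tumours lie above every Balb/c-2 rep2 tumour.

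Several MHC class I genes fell in CBA. Of 33 listed genes of MHC and antigen processing, 18 were tested, 5 fell and 0 rose, against 6.48% and 6.11% of all genes tested, with a median log2 fold change of -1.53. H2-D1, a classical class I heavy chain (chr17:35262730-35267499), had 1543, 2244 and 3581 in CBA tumours A, B and C, against 8535, 10142 and 7517 in Balb/c-2 rep2 tumours A, B and C. The highest CBA tumour, C, was under the lowest Balb/c-2 rep2 tumour, and H2-D1 fell (log2 fold change -1.90, SE 0.43, limma adjusted p = 0.00362). H2-T23, the gene of the nonclassical molecule Qa-1 that inhibitory receptors of natural killer cells bind (chr17:36029773-36032855), had 23, 56.5 and 19.9 in CBA, against 708, 466 and 313 in Balb/c-2 rep2. It was 15.3-fold lower in CBA (log2 fold change -3.94, SE 0.90, limma adjusted p = 0.00416). H2-T22, another nonclassical gene, had 340.0, 624 and 591 in CBA, against 2725, 2394 and 1257 in Balb/c-2 rep2, and fell (log2 fold change -2.01, SE 0.45, limma adjusted p = 0.0037). Psmb10, a subunit of the immunoproteasome, had 0, 2.17 and 5.86 in CBA, against 9.31, 7.74 and 9.08 in Balb/c-2 rep2, and fell by 1.79 on the log2 scale (limma adjusted p = 0.0317).

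The remaining called member, H2-Q7, had 0, 0 and 3.52 in CBA, against 34.6, 17.7 and 3.03 in Balb/c-2 rep2 and overlapping groups. Not called were Tapbp, the peptide-loading factor tapasin, with 1546, 2761 and 2332 in CBA, against 7541, 5969 and 3077 in Balb/c-2 rep2, the transactivator gene Nlrc5 with a log2 fold change of -1.97 and the peptide-trimming gene Erap1 with -0.83 (limma adjusted p = 0.107, 0.141 and 0.0564). In Tapbp and Nlrc5 all CBA values were under all Balb/c-2 rep2 values. Cd274, the checkpoint ligand PD-L1 that is induced by interferon (chr19:29367455-29388095), had 9.42, 14.1 and 5.86 in CBA, against 142, 88.4 and 89.3 in Balb/c-2 rep2. It was 10.2-fold lower in CBA, with the groups well apart (log2 fold change -3.35, SE 0.63, limma adjusted p = 0.000883). H2-D1, H2-T22 and H2-T23 kept their calls whichever library was left out, and the count of 5 was 3 without CBA A, CBA B or Balb/c-2 rep2 A. H2-Q7, Tapbp, Nlrc5, Erap1 and Cd274 were named after their values were seen. Class I genes are close copies of one another, so how their reads were split between them is uncertain.

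Genes of DNA replication and mitosis were the list with the most genes that rose in CBA. Of 116 listed genes, 78 were tested, 53 rose and 0 fell, against 6.11% and 6.48% of all genes tested, with a median log2 fold change of 1.28. The groups did not overlap for 71 of the 78, against 34.3% of all genes tested. The set spans the firing of origins, the replication fork, chromosome condensation, the spindle and the kinetochore. The CBA tumours were close to one another, while among Balb/c-2 rep2 tumours B was usually the highest.

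Hmmr, which organises spindle microtubules (chr11:40701395-40733422), had 2373, 2172 and 2009 in CBA tumours A, B and C, against 910.2, 1164 and 773 in Balb/c-2 rep2 tumours A, B and C. Every CBA value was above every Balb/c-2 rep2 value, and Hmmr rose 2.33-fold (log2 fold change 1.22, SE 0.25, limma adjusted p = 0.00152). Top2a, the topoisomerase that untangles replicated chromosomes (chr11:98992943-99024189), had 1658, 1723 and 1609.6 in CBA, against 689, 1003 and 546 in Balb/c-2 rep2, and rose (log2 fold change 1.20, SE 0.30, limma adjusted p = 0.0073). Aurkb, the kinase of the chromosomal passenger complex, had 929, 959 and 764 in CBA, against 415, 546 and 368 in Balb/c-2 rep2 (log2 fold change 1.009, SE 0.25, limma adjusted p = 0.00759). Mcm6, a subunit of the replicative helicase, had 1249, 1205 and 1027 in CBA, against 566, 748 and 569 in Balb/c-2 rep2, and rose by 0.89 on the log2 scale (limma adjusted p = 0.0268). In all 3 the groups did not overlap.

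The 15 genes with the highest fold changes had mean signals of at most 57.2 in CBA, and several of them act in replication or mitosis. Rfc3, a subunit of the clamp loader at the replication fork (chr5:151642756-151651242), had 29.3, 13 and 12.9 in CBA, against 1.33, 1.1 and 0 in Balb/c-2 rep2. Signal in Balb/c-2 rep2 was at 1 read or none in each library, and Rfc3 rose (log2 fold change 3.41, SE 0.56, limma adjusted p = 0.000258). Neil3, a DNA glycosylase active in S phase (chr8:53586867-53639065), had 37.7, 51.1 and 77.4 in CBA, against 2.66, 15.5 and 1.51 in Balb/c-2 rep2, Esco2, which acetylates cohesin during replication, had 27.2, 32.6 and 44.5 in CBA, against 5.32, 7.74 and 0 in Balb/c-2 rep2, and Ncapd2, a condensin subunit, had 62.8, 60.8 and 48.1 in CBA, against 7.98, 23.2 and 0 in Balb/c-2 rep2. All 3 rose, by 3.34, 3.20 and 3.27 on the log2 scale (limma adjusted p = 0.00261, 0.0013 and 0.00214). Plk4, the kinase that starts centriole duplication, and Timeless, a fork protection factor, rose by 2.83 and 2.72 (limma adjusted p = 0.004 and 0.022), and Timeless lost its call in 4 of the 6 fits that left out a library.

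The next 6 genes were named after their values were seen. Foxm1, the transcription factor of G2 and M phase genes, had 1203, 1217 and 722 in CBA, against 409, 420.0 and 396 in Balb/c-2 rep2 (log2 fold change 1.32, limma adjusted p = 0.00108). Kif11, the motor that separates spindle poles, had 353, 375 and 329 in CBA, against 121, 156 and 106 in Balb/c-2 rep2 (log2 fold change 1.47, limma adjusted p = 0.000883). Cdk1, the kinase that drives entry into mitosis, had 34.5, 49.98 and 51.6 in CBA, against 9.31, 15.5 and 9.08 in Balb/c-2 rep2 (log2 fold change 1.93, limma adjusted p = 0.00271). In each of the 3 the lowest CBA tumour was above the highest Balb/c-2 rep2 tumour. Of the 25 tested members that were not called, the one with a negative estimate was Orc2, an origin recognition subunit, with 295, 253 and 285 in CBA, against 310.0, 301 and 487 in Balb/c-2 rep2 (log2 fold change -0.36), and Cdk2 and Chek1 had log2 fold changes of 0.49 and 0.55.

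Hmmr, Foxm1, Kif11, Cdk1, Rfc3, Neil3 and Esco2 kept their calls whichever library was left out, and Top2a, Aurkb, Ncapd2 and Plk4 lost theirs without Balb/c-2 rep2 C. Mcm6 lost its call in 4 of the 6 fits. The count of 53 was 18 without Balb/c-2 rep2 C and between 37 and 55 when another library was left out.

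Windows of the same kind were read for 4 forms of the E2F site, TTTGGCGC, TTTCCCGC, TTTCGCGC and TTTGCCGC, on both strands. E2F factors control genes of the G1 to S transition. Of all windows 2.27% hold a site, against 18 of 65 for the tested genes of replication and mitosis (27.7%) and 12 of 43 for those that rose (27.9%). For the tested interferon genes the count was 3 of 39 (7.69%), and 0 of 22 for those that fell. The CCAAT box (letters CCAAT, both strands), which the factor NF-Y binds, is in 37.4% of all windows, in 45 of the 65 of replication and mitosis (69.2%), in 11 of 14 of MHC (78.6%) and in 9 of 11 of cholesterol synthesis (81.8%). The 150 bases before the start are shown for 3 genes that rose, chr5:151651209-151651358 (minus strand) for Rfc3, chr1:128359706-128359855 (minus) for Mcm6 and chr6:125191587-125191736 (minus) for Ncapd2, with E2F sites in capitals.
Rfc3: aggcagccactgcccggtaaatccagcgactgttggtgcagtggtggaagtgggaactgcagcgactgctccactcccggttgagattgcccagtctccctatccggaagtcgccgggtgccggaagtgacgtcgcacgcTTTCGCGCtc
Mcm6: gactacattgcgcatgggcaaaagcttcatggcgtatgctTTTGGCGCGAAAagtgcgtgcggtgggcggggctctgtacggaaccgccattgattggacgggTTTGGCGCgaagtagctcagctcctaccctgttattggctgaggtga
Ncapd2: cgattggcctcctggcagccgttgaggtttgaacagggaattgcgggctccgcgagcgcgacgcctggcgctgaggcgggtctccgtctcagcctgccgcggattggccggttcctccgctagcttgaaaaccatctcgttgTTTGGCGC
Mcm6 holds 3 matches, and in its first run of capitals TTTGGCGC overlaps GCGCGAAA, the reverse complement of TTTCGCGC.

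Of 22 listed genes of cholesterol synthesis, 17 were tested, 8 rose and 0 fell in CBA, against 6.11% and 6.48% of all genes tested, with a median log2 fold change of 1.54. The groups did not overlap for 13 of the 17, against 34.3% of all genes tested. Acat2, the thiolase that makes acetoacetyl-CoA (chr17:12942890-12960747), had 3216, 3465 and 1535 in CBA tumours A, B and C, against 673, 889 and 233 in Balb/c-2 rep2 tumours A, B and C. The lowest CBA tumour, C, was above the highest Balb/c-2 rep2 tumour, and Acat2 rose 4.96-fold (log2 fold change 2.31, SE 0.46, limma adjusted p = 0.00138). Fdps, which makes farnesyl diphosphate, had 59.6, 63 and 45.7 in CBA, against 13.3, 15.5 and 0 in Balb/c-2 rep2 (log2 fold change 3.20, SE 0.80, limma adjusted p = 0.0079), and its level in Balb/c-2 rep2 C was 0. Lss, which closes the sterol rings, had 1531, 1832 and 1006 in CBA, against 520.3, 735 and 327 in Balb/c-2 rep2. It rose by 1.497 on the log2 scale (limma adjusted p = 0.0161), as did Stard4, a carrier of cholesterol, by 1.19 (limma adjusted p = 0.0138). Idi1 and Msmo1 rose by 1.88 and 1.86 (limma adjusted p = 0.00558 and 0.00571). The regulator Srebf2 had 725, 697 and 404 in CBA, against 448, 355 and 366 in Balb/c-2 rep2 and was not called, with a log2 fold change of 0.60. Among Balb/c-2 rep2 tumours C had the lowest value in each of the 8 genes that rose. Without Balb/c-2 rep2 C 1 gene, Acat2, was called, and 5 were called without CBA A. Only 1 fixed form of the sterol regulatory element was searched, on both strands, and other forms of it were not. This form was in 0 of the 11 windows of tested members, and in 0.234% of all windows. For 6 of the 17 tested members no window was found. With so low a share in all windows and so few windows, this 0 cannot show that these promoters lack the element. Idi1, Msmo1 and Srebf2 were named after their values were seen.

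**Figure D2:**
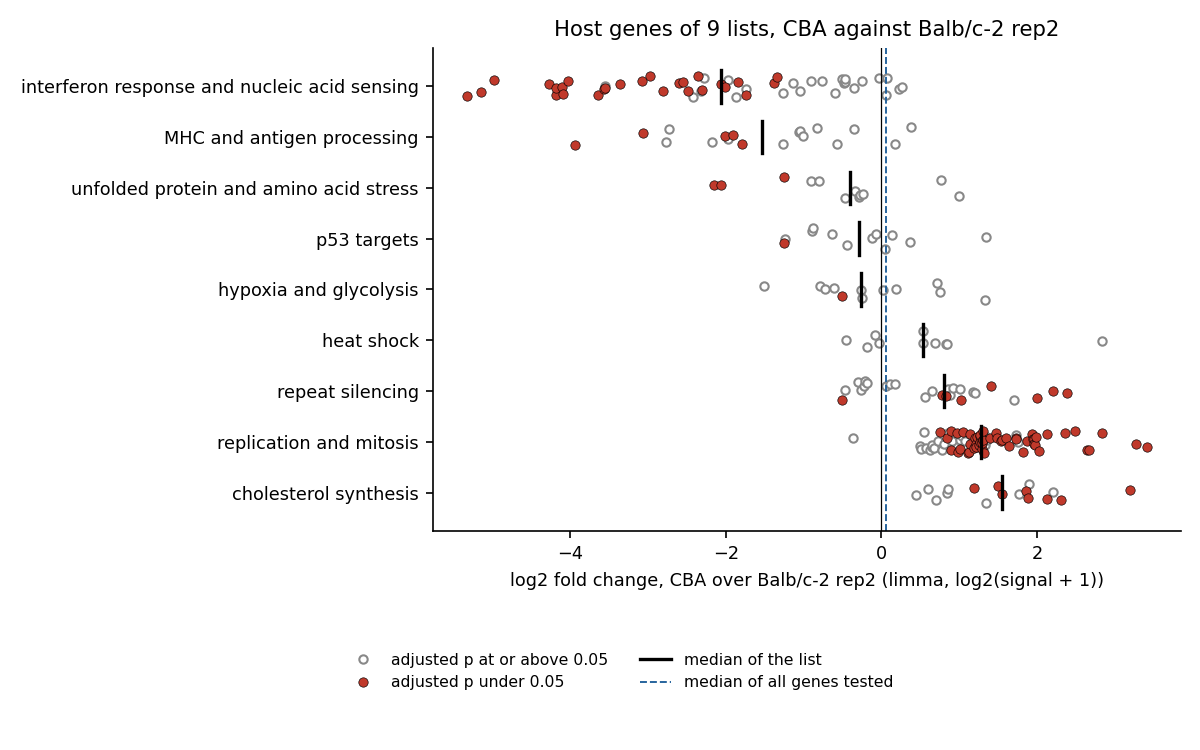
Log2 fold changes (x axis, CBA over Balb/c-2 rep2) of the tested host genes of 9 lists (rows); filled points passed an adjusted p of 0.05, bars mark each list's median and the dashed line the median of all genes tested, 0.06. The interferon list has its median at -2.06 and the MHC list at -1.53, and the replication and cholesterol lists have theirs at 1.28 and 1.54.

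Genes that silence repeats were tested as a list of 35, of which 26 passed the filter, 7 rose and 1 fell, against 6.11% and 6.48% of all genes tested, with a median log2 fold change of 0.80. Uhrf1, which recruits the maintenance DNA methyltransferase to replicated DNA (chr17:56303321-56323486), had 105, 112 and 144 in CBA tumours A, B and C, against 21.3, 40.9 and 12.1 in Balb/c-2 rep2 tumours A, B and C. The lowest CBA value was above the highest Balb/c-2 rep2 value, and Uhrf1 rose (log2 fold change 2.38, SE 0.40, limma adjusted p = 0.000321). In the earlier set of Balb/c-2 libraries Uhrf1 was higher than in the repeat libraries, at 77.3, 79.6 and 64.1, and the fold change of the same CBA tumours against them was 0.69 and not called. Ezh2, the methyltransferase of the Polycomb complex, had 31.4, 48.9 and 56.3 in CBA, against 5.32, 16.6 and 7.57 in Balb/c-2 rep2, and rose (log2 fold change 2.201, SE 0.49, limma adjusted p = 0.00307). Cbx5, the heterochromatin protein HP1 alpha, had 7305, 7070.4 and 6171 in CBA, against 3981, 4152 and 3461 in Balb/c-2 rep2, and Atrx, a remodeller that deposits histone H3.3 at repeats, had 212, 227 and 236 in CBA, against 110.4, 164 and 124 in Balb/c-2 rep2. They rose by 0.83 and 0.78 on the log2 scale (limma adjusted p = 0.0137 and 0.00534).

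The gene that fell was Zfp809, a KRAB zinc finger that recruits silencing to murine leukaemia virus sequences, with 439, 439 and 419.7 in CBA, against 578, 586 and 679 in Balb/c-2 rep2 and no overlap (log2 fold change -0.50, SE 0.14, limma adjusted p = 0.013). Cbx1, Cbx3 and Suv39h1 also rose, by 1.03, 1.40 and 2.00 (limma adjusted p = 0.0287, 0.0298 and 0.0355). Setdb1 and Trim28, which carry out silencing at endogenous retroviruses, had log2 fold changes of 0.17 and 0.86, and Dnmt1 had 1.699; none was called (limma adjusted p = 0.636, 0.185 and 0.0587). Without Balb/c-2 rep2 C 3 members rose and 0 fell, and without CBA C 4 rose and 0 fell. Uhrf1, Ezh2 and Atrx kept their calls whichever library was left out. Ezh2, Cbx1, Cbx3, Suv39h1, Setdb1, Trim28 and Dnmt1 were named after their values were seen.

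The other lists held few calls, and counts of 1 in 9 or 1 in 12 genes that fell are close to the 6.48% of all genes tested that fell. Of 12 tested genes of the unfolded protein and amino acid stress responses 3 fell: Atf6, a sensor of the endoplasmic reticulum, with 883, 1083 and 1114 in CBA, against 2055, 1943 and 3566 in Balb/c-2 rep2 (log2 fold change -1.25, SE 0.26, limma adjusted p = 0.00202), Slc7a11, the cystine transporter, with 52.3, 103 and 55.1 in CBA, against 222, 312 and 325 in Balb/c-2 rep2 (log2 fold change -2.06, SE 0.50, limma adjusted p = 0.00642), and Vldlr, a lipoprotein receptor, which lost its call in each of the 6 fits that left out a library. Atf6 and Slc7a11 kept theirs. Of 12 tested p53 targets 1 fell, Rrm2b, the p53-induced subunit of ribonucleotide reductase, with 221, 179 and 239 in CBA, against 442, 580.3 and 501 in Balb/c-2 rep2. Every CBA value was under every Balb/c-2 rep2 value, and Rrm2b kept its call in every such fit (log2 fold change -1.25, SE 0.22, limma adjusted p = 0.000488). The p53 targets Ccng1 and Aen had log2 fold changes of 0.14 and -0.44 (limma adjusted p = 0.836 and 0.325).

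Of 12 tested hypoxia and glycolysis genes 1 fell, Hif1a, with 1569, 1568 and 1260.2 in CBA, against 1918, 2409.7 and 1912 in Balb/c-2 rep2 (log2 fold change -0.50, SE 0.16, limma adjusted p = 0.035), and it lost its call in 5 of the 6 fits that left out a library. Of 9 mesenchymal and TGF-beta genes 1 fell, the transcription factor Zeb2, with 167, 209 and 226 in CBA, against 330.0, 375 and 595 in Balb/c-2 rep2 (log2 fold change -1.07, SE 0.22, limma adjusted p = 0.00153), and Zeb2 kept its call in all of them. Of 4 tested outputs of the MAPK pathway, which the mutated Braf of YUMM1.7 drives, 1 rose, Spred3, by 0.99 (limma adjusted p = 0.029), a call lost in 4 of the 6 fits, and Etv1 and Epha2 had -0.37 and 0.43. Of 10 tested heat shock genes 0 were called by limma, edgeR or DESeq2, and 1 had an unadjusted limma p under 0.05. This was Hspa4l, with 827, 788 and 1216 in CBA, against 475, 724 and 548 in Balb/c-2 rep2 (log2 fold change 0.69, unadjusted p = 0.00985). The melanocyte genes Gpnmb and Mlph had log2 fold changes of -0.43 and -0.49, with overlapping groups. Of 5 tested fibroblast markers 1 fell, Fbln2, an extracellular matrix protein, with 0, 4.35 and 3.52 in CBA, against 70.5, 40.9 and 63.5 in Balb/c-2 rep2 (log2 fold change -4.32, SE 1.29, limma adjusted p = 0.0246), a call lost in 3 of the 6 fits. The receptor genes Pdgfrb and Pdgfra had -0.40 and -0.86 and were not called. Col5a2, a collagen gene, went the other way, with 37.7, 18.5 and 27 in CBA, against 6.65, 15.5 and 15.1 in Balb/c-2 rep2 and no overlap, and was not called (log2 fold change 1.12, limma adjusted p = 0.25). Postn, a matrix protein of the same list, had 40.8, 55.4 and 90.3 in CBA, against 785.1, 287 and 700.4 in Balb/c-2 rep2, and was not called (limma adjusted p = 0.25). The part of these fibroblast values in the other results was not tested.

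Several genes outside the lists were among the 15 with the lowest log2 fold change. Soat2, which esterifies cholesterol, had 0, 4.35 and 4.69 in CBA, against 148, 82.9 and 119.5 in Balb/c-2 rep2, read through a single copy of the B2 family in its 3′ UTR (chr15:102163279-102163468). CBA values were under 5 and Balb/c-2 rep2 values above 80, and Soat2 fell (log2 fold change -5.20, SE 0.94, limma adjusted p = 0.000634). Apod, a secreted lipocalin, was at 0 in all 3 CBA tumours, against 29.3, 12.2 and 46.9 in Balb/c-2 rep2. Against a floor of 3 reads per library it was at least 8.91-fold lower in CBA (limma adjusted p = 0.000488). P2rx3, an ATP-gated channel, had 0, 0 and 1.17 in CBA, against 16, 35.4 and 24.2 in Balb/c-2 rep2 (limma adjusted p = 0.00272), and Gbp11, of the interferon-induced guanylate-binding family and annotated as a polymorphic pseudogene, had 0, 2.17 and 3.52 in CBA, against 199.6, 119 and 13.6 in Balb/c-2 rep2 (limma adjusted p = 0.00443). Both fell and kept their calls whichever library was left out, as did Soat2 and Apod. Among the 15 highest outside the lists, Pfkfb1, a regulator of glycolysis, had 17.8, 26.1 and 31.7 in CBA, against 6.65, 4.42 and 0 in Balb/c-2 rep2, and Smad9, a mediator of bone morphogenetic protein signals, had 24.1, 25 and 8.21 in CBA, against 0, 5.53 and 1.51 in Balb/c-2 rep2. They rose by 2.88 and 2.84 on the log2 scale (limma adjusted p = 0.00365 and 0.0179), and both calls were lost without Balb/c-2 rep2 C.

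The place of the signal in genes differed between the groups. Copies in introns held 24.6%, 25.7% and 27.3% of a library's signal in CBA tumours A, B and C, against 17.8%, 19.5% and 17.97% in Balb/c-2 rep2 tumours. Every CBA library was above every Balb/c-2 rep2 library (25.9% ± 1.38 in CBA and 18.4% ± 0.949 in Balb/c-2 rep2, SD, n = 3 each; two-sided exact permutation test, p = 0.1, the smallest that 3 against 3 allows). Over copies with a mean signal of at least 5 the share was 14.4% ± 1.36 in CBA and 10.51% ± 0.365 in Balb/c-2 rep2, a difference of 3.93 percentage points in place of 7.42, and the groups again did not overlap. Copies in 3′ UTRs moved the other way, with 45.6%, 45.0% and 41.0% in CBA, against 53.2%, 51.3% and 51.8% in Balb/c-2 rep2 (exact permutation p = 0.1). In the first libraries of the Balb/c-2 tumours the intron share was 17.7%, 23.985% and 20.2%, so that tumour B of that set came close to CBA A.

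Single copies showed the same split. Of 33215 copies tested 1970 were called (5.93%), of which 1127 (3.39%) rose and 843 (2.54%) fell, with a median log2 fold change of 0.20. With TMM scaling, which lowers that median to 0.10, 883 rose and 1032 fell. Among 14031 intron copies 629 rose and 119 fell (median 0.53, and 0.43 with TMM), and among 8599 copies in 3′ UTRs 182 rose and 460 fell (median -0.16, and -0.28 with TMM). Intergenic copies numbered 3493, with 49 that rose, 119 that fell and a median of -0.02. The count over all copies was 631 without Balb/c-2 rep2 C, 748 without CBA C, 872 without CBA A, 1087 without Balb/c-2 rep2 A and 1301 without CBA B.

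The same lists were read through introns, by summing the copies inside introns of exactly 1 gene, a readout added after the values were seen. Of 8980 genes tested in this way 12.3% were called, 1023 higher (11.4%) and 84 lower (0.935%) in CBA, with a median log2 fold change of 0.61. Of 108 tested genes of replication and mitosis 86 rose and 0 fell (median 1.87), and 48 rose with TMM scaling and 57 without Balb/c-2 rep2 C. Of 20 tested genes of cholesterol synthesis 16 rose (median 2.14), and 11 with TMM. Of 57 interferon genes 7 fell and 0 rose (median -1.18), against 0.61 over all introns tested. That 7 was 12 with TMM scaling, 10 without CBA B, 4 without CBA C or Balb/c-2 rep2 B, and 2 without CBA A or Balb/c-2 rep2 A. Zbp1 introns had 0, 8.69 and 2.35 in CBA, against 234, 112 and 40.8 in Balb/c-2 rep2 (log2 fold change -5.02, SE 0.94, limma adjusted p = 0.000546), and Rsad2 introns 1.05, 0 and 1.17 in CBA, against 35.9, 21 and 25.7 in Balb/c-2 rep2 (log2 fold change -4.08, SE 0.98, limma adjusted p = 0.00501). Acat2 introns had 209, 219 and 161 in CBA, against 19.96, 23.2 and 10.6 in Balb/c-2 rep2 (log2 fold change 3.44, SE 0.56, limma adjusted p = 0.000142), and Mcm5 introns, of the helicase, 73.2, 48.9 and 57.4 in CBA, against 9.31, 5.53 and 3.03 in Balb/c-2 rep2 (log2 fold change 3.21, SE 0.59, limma adjusted p = 0.000492). In all 4, named after their values were seen, the groups did not overlap.

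**Figure D3:**
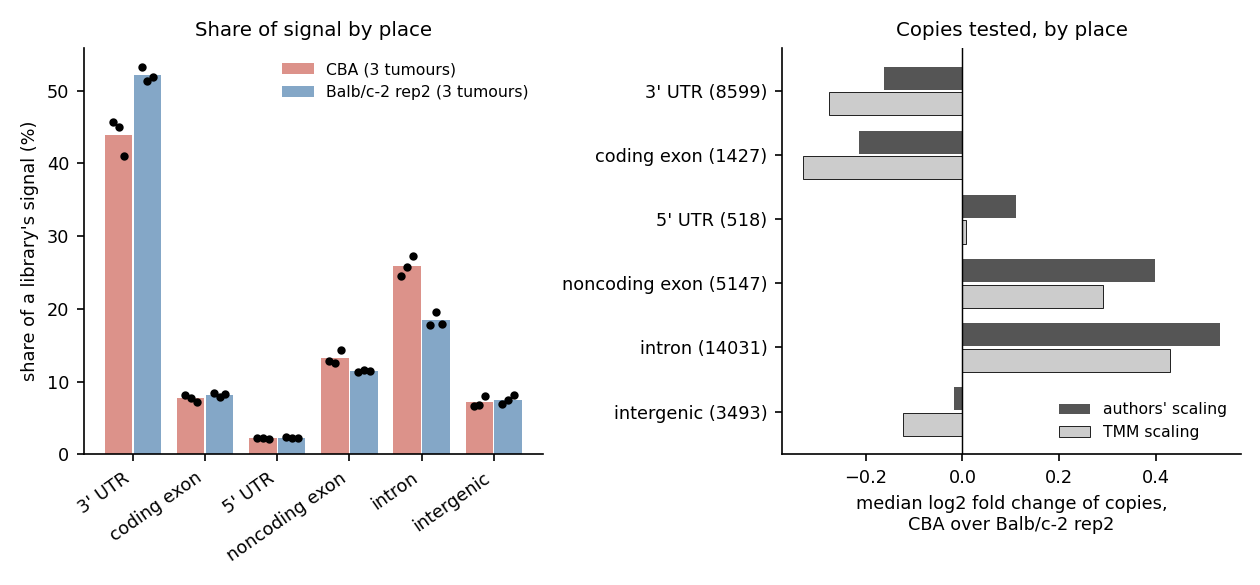
Left, share of a library's repeat signal (%) by place in CBA and Balb/c-2 rep2; bars are means of 3 tumours, points are tumours. Right, median log2 fold change (CBA over Balb/c-2 rep2) of the tested copies of each place, with their number, under the authors' scaling and TMM scaling; intron copies have medians of 0.53 and 0.43 and 3′ UTR copies -0.16 and -0.28.

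Several of the single copies with the largest fold changes lay in genes of the same lists. Of the 12 highest, 10 lay in introns, among them those of Lig1, Cenpl, Gins1, Cdc20, Uhrf1, Troap (2 copies), Cenpn and Top2a, which act in replication or mitosis. Of these genes Gins1, Uhrf1 and Top2a are members of the lists, and the others are not. The Top2a copy lost its call in 5 of the 6 fits that left out a library. The highest was a ZP3AR satellite copy in an intron of Lig1, the ligase that joins Okazaki fragments (chr7:13309816-13310333), with 19.9, 20.6 and 32.8 in CBA, against 0, 3.32 and 0 in Balb/c-2 rep2. It was near 0 in Balb/c-2 rep2 and rose (log2 fold change 3.93, SE 0.65, limma adjusted p = 0.00047). A B3 copy in an intron of Uhrf1 (chr17:56317271-56317457) had 38.7, 25 and 43.4 in CBA, against 1.33, 3.32 and 1.51 in Balb/c-2 rep2 (log2 fold change 3.61, SE 0.65, limma adjusted p = 0.000929), and an RSINE1 copy in an intron of Scd2, a stearoyl-CoA desaturase (chr19:44299142-44299278), had 28.2, 27.2 and 32.8 in CBA, against 0, 6.63 and 1.51 in Balb/c-2 rep2 (log2 fold change 3.50, SE 0.71, limma adjusted p = 0.0028). Both rose, and the 3 copies kept their calls whichever library was left out. Of the 12 lowest, 3 lay in Zbp1, 3 in 1 long noncoding gene, 1 each in the 3′ UTRs of Rsad2, Oas2 and Soat2, 1 in an intron of Ak5, and 2 between genes. The lowest, an L1M2 copy in the 3′ UTR of Zbp1 (chr2:173206745-173207146), had 0, 28.3 and 5.86 in CBA, against 691, 421 and 204 in Balb/c-2 rep2 (log2 fold change -6.06, SE 1.23, limma adjusted p = 0.00272). An MTB copy in an intron of Ak5, an adenylate kinase (chr3:152550259-152550658), was at 0 in all CBA libraries, against 18.6, 39.8 and 48.4 in Balb/c-2 rep2, and was at least 10.8-fold lower in CBA against 3 reads per library (limma adjusted p = 0.000906).

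Some called copies between genes had a gene of these lists, or another interferon-stimulated gene, as their nearest protein-coding neighbour. An RMER21A copy 3298 bases from Knl1, a kinetochore scaffold (chr2:119108799-119108970), had 9.42, 9.78 and 14.1 in CBA, against 0 in each Balb/c-2 rep2 library, and was at least 2.81-fold higher in CBA (limma adjusted p = 0.000651). An ORR1E copy 782 bases from Cenpa, the centromeric histone (chr5:30675612-30675802), had 20.9, 25 and 17.6 in CBA, against 2.66, 2.21 and 1.51 in Balb/c-2 rep2, and rose (log2 fold change 2.83, SE 0.53, limma adjusted p = 0.00133). On the other side, an MT2C_Mm LTR 2383 bases from Ifi27, an interferon-stimulated gene (chr12:103431337-103431828), had 1.05, 6.52 and 0 in CBA, against 54.6, 48.6 and 89.3 in Balb/c-2 rep2, and fell (log2 fold change -4.66, SE 0.97, limma adjusted p = 0.00326). An ORR1A2 copy 1056 bases from Aim2, a sensor of cytosolic DNA (chr1:173467096-173467424), had 0, 2.17 and 0 in CBA, against 51.9, 15.5 and 22.7 in Balb/c-2 rep2, and fell (log2 fold change -4.22, SE 0.88, limma adjusted p = 0.00347). A B1_Mus1 copy 3355 bases from Oasl2 fell too, with 0, 2.17 and 0 in CBA, against 26.6, 21 and 37.8 in Balb/c-2 rep2 (limma adjusted p = 0.00414). Other called copies had no such neighbour: a B1_Mur2 copy 440 bases from Sh2d6 (chr6:72522147-72522308) had 3.14, 1.09 and 3.52 in CBA, against 99.8, 71.8 and 242 in Balb/c-2 rep2, and an RLTR4_MM-int provirus 70098 bases from Vip (chr10:5717715-5726008) had 2.09, 0 and 1.17 in CBA, against 54.6, 23.2 and 242 in Balb/c-2 rep2. They fell by 5.16 and 5.19 on the log2 scale (limma adjusted p = 0.00198 and 0.00221). Distance to a gene was not used in any test.

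Summed by repeat name, 141 of 1004 subfamilies were called (14.0%), 69 higher (6.87%) and 72 lower (7.17%), with a median log2 fold change of 0.09. The count was 58 without Balb/c-2 rep2 A, 60 without Balb/c-2 rep2 C, 66 without CBA C, 68 without CBA A and 75 without CBA B. Over copies that overlap no exon, 67 of 915 were called (7.32%), 53 higher (5.79%) and 14 lower (1.53%), with a median of 0.36. With TMM scaling that median was 0.03, and 13 were higher and 38 lower, so the balance of called families outside exons depended on the scaling. The number fell to between 2 and 15 when any library but Balb/c-2 rep2 B was left out, and was 111 without Balb/c-2 rep2 B.

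Several subfamilies with a large change followed 1 copy in a host gene. RLTR13D3, an LTR, had 17.8, 43.5 and 32.8 in CBA, against 484, 338 and 191 in Balb/c-2 rep2, and fell (log2 fold change -3.38, SE 0.70, limma adjusted p = 0.00146). Most of this was 1 copy in an intron of Gbp8, of the guanylate-binding family (chr5:105076361-105077420), with 9.42, 32.6 and 21.1 in CBA, against 428, 301 and 138 in Balb/c-2 rep2. LTRIS2 had 356, 687 and 370.4 in CBA, against 2362, 1748 and 1351 in Balb/c-2 rep2, and fell (log2 fold change -1.98, SE 0.46, limma adjusted p = 0.00392), and its copy in the 3′ UTR of Ube2l6, the enzyme that attaches Isg15 (chr2:84809592-84810084), had 208, 534 and 202 in CBA, against 2224, 1566 and 1194 in Balb/c-2 rep2. LTR67B had 118, 235 and 182 in CBA, against 1037, 487 and 608 in Balb/c-2 rep2 (log2 fold change -1.97, SE 0.34, limma adjusted p = 0.000226). Here 6 of the 9 tested copies fell and 0 rose, against 2.54% and 3.39% of all copies tested. MERV1_LTR rose by 1.54 (limma adjusted p = 0.0131), with 1 tested copy, in an intron of Topbp1, an activator of the replication checkpoint (chr9:103325940-103326390), at 101, 82.6 and 116 in CBA, against 9.31, 38.7 and 34.8 in Balb/c-2 rep2. RLTR9D2 rose by 1.47 (limma adjusted p = 0.00392), and its copy in an exon of Hjurp, the chaperone of centromeric histone (chr1:88270335-88270714), had 78.5, 80.4 and 106 in CBA, against 16, 30.9 and 21.2 in Balb/c-2 rep2. RLTR13D3, LTRIS2, LTR67B and RLTR9D2 kept their calls whichever library was left out.

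VL30 elements are retrovirus-like elements without coding capacity, known to be transcribed in many mouse cell lines. Of 5 tested subfamilies of this group 1 fell, MMVL30-int, against 7.17% of all subfamilies tested. Outside exons 2 fell, MMVL30-int and RLTR6_Mm, against 1.53%. The medians were -0.03, and 0.21 outside exons. Copies of MMVL30-int outside exons summed to 7953, 8549 and 8057 in CBA, against 16391, 12955 and 41231 in Balb/c-2 rep2. The CBA tumours were close to one another, every Balb/c-2 rep2 tumour was higher, and C was the highest by far (log2 fold change -1.33, SE 0.38, limma adjusted p = 0.0307). The call was lost when any library but Balb/c-2 rep2 B was left out. Of 60 tested copies 6 fell and 0 rose, against 2.54% and 3.39% of all copies tested. RLTR6-int, another internal part of these elements, had 3896, 3881 and 3844 in CBA, against 3335, 3726 and 3049.9 in Balb/c-2 rep2 and was not called (log2 fold change 0.21, limma adjusted p = 0.268), and of its 23 tested copies 1 rose and 2 fell. The MMVL30-int copy with the largest difference lay between genes, 16317 bases from Hnrnpa3 (chr2:75638103-75642944), with 765, 708 and 902 in CBA, against 5599, 3917 and 29515 in Balb/c-2 rep2, and fell (log2 fold change -3.46, SE 0.69, limma adjusted p = 0.00219). The first Balb/c-2 libraries had 5607, 3774 and 28200.1, again with tumour C the highest. A copy 3993 bases from Dhx40 (chr11:86811739-86815896) had 778, 929 and 1321 in CBA, against 3348, 1892 and 5191 in Balb/c-2 rep2, and fell (log2 fold change -1.701, SE 0.48, limma adjusted p = 0.0271).

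Murine leukaemia virus sequences, which encode infectious retroviruses in some strains, are read through RLTR4_MM-int and MuLV-int. RLTR4_MM-int had 9884, 11446 and 9659 in CBA, against 8830.4, 7400.3 and 6737 in Balb/c-2 rep2, with no overlap (log2 fold change 0.44, SE 0.14, limma adjusted p = 0.0322). It was not called with TMM scaling, nor outside exons (limma adjusted p = 0.0541), nor in 5 of the 6 fits that left out a library. MuLV-int had 19344, 21048 and 24796 in CBA, against 16035, 17430.3 and 18351 in Balb/c-2 rep2 and was not called (limma adjusted p = 0.35). In both, a pair of adjoining copies in an intron of Camk2b and another in Cep85 held much of the signal outside exons, and none of these was called. IAPEz-int, the internal part of intracisternal A particles, had 6605, 6285 and 8967 in CBA, against 10350.0, 7269 and 5669 in Balb/c-2 rep2 (log2 fold change -0.07), with overlapping groups. Of its 268 tested copies 4 rose and 2 fell, against 3.39% and 2.54% of all copies tested. A copy in an intron of Wdr49 (chr3:75348451-75351749) had 2.09, 0 and 0 in CBA, against 1043, 0 and 0 in Balb/c-2 rep2, so that 1 tumour held nearly all of the signal, and the first library of that tumour had 1055. MMERVK10D3_I-int had 1328, 1623 and 6471 in CBA, against 1965, 10288 and 1493 in Balb/c-2 rep2, with CBA C and Balb/c-2 rep2 B both above the other 4 libraries, and was not called (limma adjusted p = 0.723). Its copy in an intron of Zdhhc14 (chr17:5522679-5524684) had 168, 204 and 2849.9 in CBA, against 329, 4457 and 263 in Balb/c-2 rep2, high in the same 2 tumours.

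Among other repeats, the sums of the B1, B2 and B4 SINE families over all copies overlapped between the groups, and B1 summed to between 466913 and 484220 in CBA and between 470545 and 478306 in Balb/c-2 rep2. Outside exons they did not overlap, and the same was so for 42.2% of all single subfamilies tested there. There B1 summed to between 120592 and 145120 in CBA and between 88387 and 98808 in Balb/c-2 rep2, B2 to between 88278 and 105864 in CBA and between 64448 and 73361 in Balb/c-2 rep2, and B4 to between 82995 and 99920 in CBA and between 61294 and 68846 in Balb/c-2 rep2. Of the 26 tested subfamilies of the 3 families outside exons 1 rose, B1_Mur4, and 0 fell, against 5.79% and 1.53% of all subfamilies outside exons. With TMM scaling 0 were called, and 0 against the first Balb/c-2 libraries. In the 6 libraries alone 15 of 15 B1, 5 of 5 B2 and 6 of 6 B4 subfamilies rose, against 190 of all 915 outside exons. The count thus depended on the fit. Median log2 fold changes outside exons were 0.48, 0.49 and 0.48 for B1, B2 and B4, against 0.36 over all subfamilies tested there. With TMM scaling these medians were 0.14, 0.15 and 0.14, against 0.03. MurSatRep1 fell by 0.30 on the log2 scale (limma adjusted p = 0.000612). Of its 1268 tested copies 61 fell and 6 rose, against 2.54% and 3.39% of all copies tested. Outside exons 2 subfamilies of the satellite list, which holds MurSatRep1, were tested and 0 were called. The MurSatRep1 copy with the largest difference lay in the 3′ UTR of Txnip, an inhibitor of thioredoxin and of glucose uptake (chr3:96561345-96561442). It had 32.4, 78.2 and 46.9 in CBA, against 397, 405 and 464 in Balb/c-2 rep2 (log2 fold change -3.07, SE 0.82, limma adjusted p = 0.0192). Young L1 elements had 1 subfamily that rose and 4 that fell of 26 tested, against 6.87% and 7.17% of all subfamilies tested. Outside exons 0 rose and 1 fell, L1MdFanc_I, against 5.79% and 1.53%. L1MdFanc_I fell by 0.94 (limma adjusted p = 0.0346), while of its 48 tested copies 0 were called lower and 2 higher. Its copies with the largest differences lay on chromosome 11, in 9930111J21Rik2, Olfr56 and Gm12185. Their log2 fold changes were -1.83, -1.90 and -2.32, and none was called (limma adjusted p = 0.197, 0.182 and 0.131). Their mean differences of -948, -788 and -747 were much of the subfamily's summed difference of -3030.

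**Figure D4:**
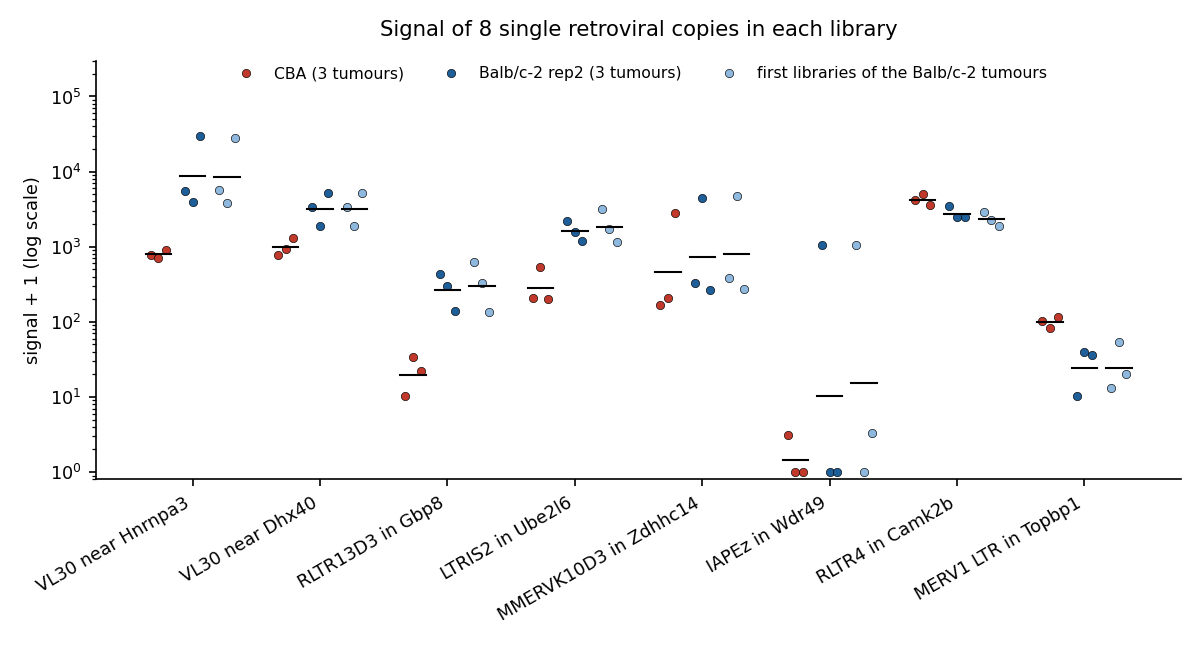
Signal + 1 (log scale) of 8 single retroviral copies, named by family and the gene they lie in or near, in CBA, Balb/c-2 rep2 and first Balb/c-2 libraries; each point is 1 tumour and each bar the group mean on the log2 scale. The signal of the VL30 copy near Hnrnpa3 lies between 708 and 902 in CBA and between 3917 and 29515 in Balb/c-2 rep2, and that of the IAPEz copy in Wdr49 is at most 2.09 in CBA and reaches 1043 in Balb/c-2 rep2 tumour A alone.

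The level of each list, the mean of log2(signal + 1) over its tested genes, sets the comparison in the order of the passages. The interferon list stood at 5.45, 7.24 and 6.05 in CBA tumours A, B and C, against 8.84, 8.44 and 7.91 in Balb/c-2 rep2. YUMM1.7 cells averaged 5.10, and the tumours of F0 averaged 5.20, of F1 5.40 and of F2 6.32. The means of N2.1, N2.2 and N2.3 were 7.15, 6.89 and 7.11, and that of Balb/c-1 was 8.21. The first Balb/c-2 libraries averaged 8.60, and the means of the compared groups were 6.25 ± 0.91 for CBA and 8.399 ± 0.47 for Balb/c-2 rep2 (SD, n = 3 each). The range of the CBA tumours overlapped that of every earlier group except both sets of Balb/c-2 libraries, which were higher. The MHC list stood at 4.68, 5.36 and 5.82 in CBA, against 7.13, 7.09 and 6.30 in Balb/c-2 rep2, with 4.52 ± 0.37 in YUMM1.7 cells (n = 3).

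The replication list stood at 6.62, 6.58 and 6.57 in CBA, against 5.18, 5.59 and 4.88 in Balb/c-2 rep2. Its mean over the groups before the Balb/c-2 passage lay between 5.75 (N2.3) and 6.42 (N2.2), so CBA had the highest mean, 6.59 ± 0.03, and Balb/c-2 rep2 the lowest, 5.22 ± 0.36 (SD, n = 3 each). The cholesterol list stood at 8.403, 8.42 and 7.86 in CBA, against 7.05, 7.14 and 5.85 in Balb/c-2 rep2. Its highest group mean was 8.48 in N2.2, its CBA mean 8.23 ± 0.32 and its Balb/c-2 rep2 mean 6.68 ± 0.72 (SD, n = 3 each). These levels are a description, and no test was made over a list.

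**Figure D5:**
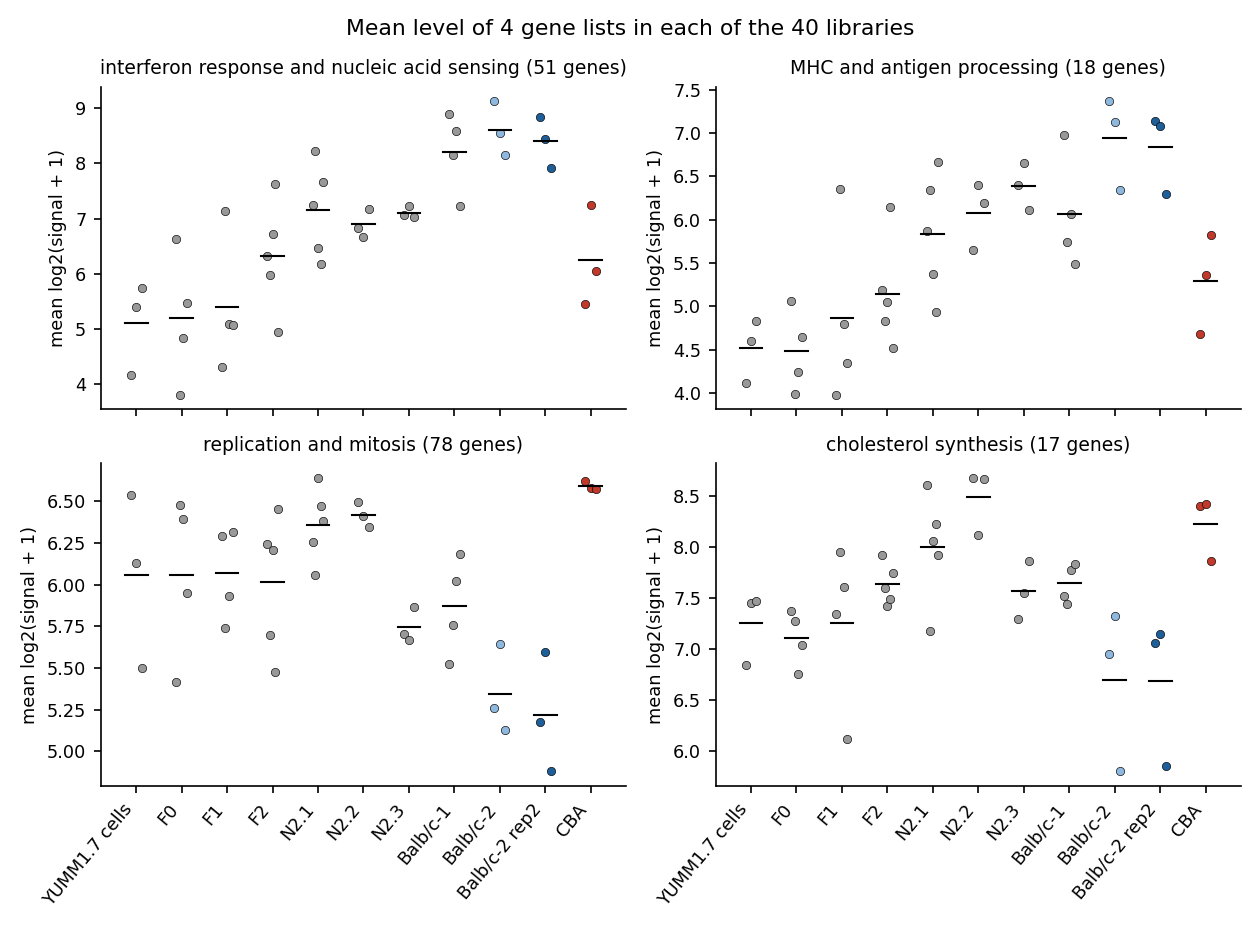
Mean log2(signal + 1) of the tested genes of 4 lists (y axis) in each of the 40 libraries, by group in the order of the passages (x axis); points are libraries and bars group means. The interferon list averages 6.25 in CBA and 8.399 in Balb/c-2 rep2, and the replication list 6.59 in CBA and 5.22 in Balb/c-2 rep2.

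The same CBA tumours were also set against the first libraries of the Balb/c-2 tumours, a comparison that shares its CBA samples with the one above. There 18.3% of host genes were called, 533 higher (7.35%) and 796 lower, and 10.8% of copies, 5.03% higher and 5.81% lower. For the interferon list 32 genes fell and 0 rose (median -2.38), for MHC 8 fell (median -1.51), for replication 44 rose (median 1.22) and for cholesterol 11 rose (median 2.05). Zbp1 had 2168, 1172 and 582 in the first Balb/c-2 libraries, Cd274 117, 69.5 and 127, Hmmr 993, 1078 and 750.1 and Acat2 738, 899 and 244. Each of these values lay on the same side of all 3 CBA tumours as the repeat libraries did.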

How the data were processed

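RNA from cultured tumour cells was sequenced after poly(A) selection, per the labels' protocols, with a directional or a non-directional library that the labels do not assign to samples. The authors deposited 1 table of normalised signal for 835636 repeat copies in 40 libraries, and 0 of its columns fell outside the series. Tools listed without role or order, per the submitters' processing notes, are featureCounts 1.5.0-p3, HISAT2 2.0.5 and StringTie 1.3.3b, with the build mm10. For the repeat annotation, the scaling factors and multi-mapping reads, the method was not given in the sources used here. In each library the deposited signal was a whole number of reads times 1 value for at least 99.99% of values (within 0.1 read). Library 2 of the YUMM1.7 cells was left out of the edgeR and DESeq2 fits. Its share by this measure was 99.995%, and libraries with lower shares were kept. It is in neither of the compared groups.

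Copies were placed in genes of GENCODE M21 (GRCm38) with bedtools 2.31.1. Signal was tested per copy, summed per repeat name, summed per repeat name outside exons, and summed per host gene over copies in exons of exactly 1 gene. Features with a mean signal of at least 5 were fitted with limma 3.58.1 in R 4.3.3 on log2(signal + 1) with a trended prior and Benjamini-Hochberg adjustment. The procedure was tested on simulated data. Alternatives were other pseudocounts and filters, TMM scaling, edgeR 4.0.16 and DESeq2 1.42.0 on the recovered reads, the 6 libraries alone, the tumour letter as a block, the first Balb/c-2 libraries, and leaving out each library. Promoter windows are from RefSeq.

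The members and the gene lists were chosen with earlier results of these data known. Genes were named by rule: the 15 highest and 15 lowest fold changes among called genes whose groups do not overlap, up to 4 called members of each list and, where fewer than 2 were called, the 2 members with the highest mean; 12 and 12 copies and 8 and 8 subfamilies were named likewise, with the 2 members of highest mean of each repeat list. Copies named as the leading copy of a subfamily and the called copies between genes were chosen after their values were seen, and not every feature the rule allows is described; some genes are not reported here. Letters mark different tumours. The spread behind the limma p-values was pooled within the 11 groups of all 40 libraries, cultures of YUMM1.7 cells included. It is therefore not the spread of the CBA and Balb/c-2 tumours alone. The Balb/c-2 tumours enter it through both of their library sets, as if these were separate tumours. Batches named in the labels are not assigned to libraries.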

Additional observations from a re-analysis of the deposited data

How the results depend on the processing

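For single copies, 1970 calls became 1045 with edgeR, 893 in the 6 libraries alone, 3601 against the first Balb/c-2 libraries and 631 to 2180 when 1 library was left out. For subfamilies, 141 became 58 to 134 when 1 library was left out. Outside exons, 67 became 118 at a mean signal of at least 20, 44 with no filter, 213 in the 6 libraries alone, 35 against the first Balb/c-2 libraries and 2 to 111 when 1 library was left out. For host genes, 913 became 605 in the 6 libraries alone and 337 to 906 when 1 library was left out. The intron share was 7.42 percentage points higher in CBA, 3.93 over copies with a mean signal of at least 5, 5.22 against the first Balb/c-2 libraries and 6.69 to 8.07 when 1 library was left out. Against the first Balb/c-2 libraries the sign turned for Lx9 (-0.24), MLTR32C_MM (-0.11, also outside exons) and MMSAT4 (0.016), and outside exons for RLTR31A_Mm (-0.10). The cause of these changes was not tested.

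Same-letter tumours did not deviate together (correlations of 0.043, -0.0739 and -0.0629, against -0.119 to 0.166 for other letters). So few correlations cannot decide whether the letters are a pairing, and the labels do not tie them. With the tumour letter as a replicate block in the 6 libraries alone, limma called 142 copies, 44 subfamilies, 189 subfamilies outside exons and 0 host genes. For host genes 1818 then had an unadjusted p under 0.05, with a smallest adjusted p of 0.0541, and without the block edgeR called 715 and DESeq2 849. Of the named host genes, 72 kept their side of the threshold with TMM scaling and 65 with edgeR. Fewer did so in other fits: 55 in the 6 libraries alone, 49 without CBA A, 43 without Balb/c-2 rep2 C and 15 with the replicate block. As the block fit called 0 host genes, these 15 were named genes not called in the main fit. The other 57 named genes lost their call there. Each of these counts, those with TMM scaling and edgeR too, includes named genes that were called in neither fit.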

Other observations

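Median log2 fold changes of copies differed little between chromosomes. Relative to the other chromosomes, copies in CBA were higher by 0.145 on chromosome 15, 0.148 on chromosome 19 and 0.105 on chromosome 8, and lower by 0.104 on chromosome 16 (a shift of -0.104), on the log2 scale over copies with a mean signal of at least 20. On chromosome 15 the groups overlapped. Its relative levels were 0.179, 0.217 and 0.476 in CBA A, B and C, against 0.122, 0.312 and 0.0028 in Balb/c-2 rep2 A, B and C. The groups also overlapped on chromosome 16, and they did not on chromosomes 19 and 8. No test was made of these shifts.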
